A study of Mus musculus with 18 samples.

Results

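The glutathione S-transferases considered here are 10 genes, Gsta2, Gsta4, Gstm1, Gstm2, Gstm5, Gstp1, Gstt1, Gsto1, Mgst1 and Mgst3, taken by symbol from a table of read counts for 55487 genes. All 10 were found once, and all 10 were expressed enough to be tested among the 16432 genes that passed a filter on low counts.

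Glutathione S-transferases join the thiol of glutathione to electrophiles such as drugs, quinones and the reactive aldehydes that lipid peroxidation leaves behind. The soluble enzymes fall into classes named alpha, mu, pi, theta and omega, and a separate membrane family (Mgst) sits in the endoplasmic reticulum and outer mitochondrial membrane. Conjugates are pumped out of the cell and trimmed to mercapturates, and the transcription factor NRF2 drives many of the genes in other tissues. In the testis the alpha and mu classes are abundant in somatic cells, and alpha enzymes also take part in steroid metabolism.

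The RNA came from primary mouse Leydig cells, which make testosterone between the seminiferous tubules, in 6 groups of 3 libraries. Cells were transfected with a control siRNA (siNC) or with an siRNA against Prdx1 (siprdx1), which encodes the peroxide-reducing enzyme peroxiredoxin 1. Each siRNA arm had a group without H2O2, a group given 200 µM H2O2 for 30 min, and a group given the same H2O2 and then the statin fluvastatin (FV) at 5 µM for 6 h. For the same 6 h the other groups were kept in 0.1% DMSO, no vehicle is recorded for the fluvastatin groups, and fluvastatin without H2O2 was not a group. The labels call the replicates biological without naming separate animals or cultures, give no age or strain, and name 1 siRNA per arm, so p-values measure the spread between these libraries.

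Libraries held 15201530 to 23898435 counts. Prdx1 was 1326 ± 42.1 CPM (counts scaled by library size and TMM factors) in siNC and 464 ± 36.1 CPM in siprdx1 (SD, n = 3), and the fitted ratio of siprdx1 to siNC was 0.35 without H2O2, 0.321 after H2O2 and 0.36 after H2O2 and fluvastatin. The Leydig marker Cyp11a1 averaged 712 CPM over all libraries, but Cyp17a1 and Hsd17b3, which later steps of testosterone synthesis need, averaged 0.0318 and 0.067 CPM. Macrophage markers (14 of 14 tested) summed to 8082 to 10215 CPM per library and fibroblast markers (7 of 8 tested) to 15060 to 19661 CPM. Transcripts of several cell types were thus measured together, and in such bulk samples fewer cells of a type and less RNA per cell cannot be told apart.

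Promoter sequences are shown for the members whose values changed most with knockdown (Gsta2, Gstp1) and for those that hold a core antioxidant response element, the kind of site NRF2 binds (Gstm5, Mgst1). RefSeq promoters (GRCm38.p6) matched 9 of the 10 members; Gsta4 was the other. Each line gives the 250 bases before the RefSeq start, 5′ to 3′ on the gene's strand, with motif matches in capitals.
Gsta2 (chr9:78347146-78347395, minus strand): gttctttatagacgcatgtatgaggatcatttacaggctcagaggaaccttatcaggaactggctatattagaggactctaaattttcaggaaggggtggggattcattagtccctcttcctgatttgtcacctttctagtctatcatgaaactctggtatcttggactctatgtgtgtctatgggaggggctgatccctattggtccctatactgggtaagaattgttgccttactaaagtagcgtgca
Gstp1 (chr19:4037913-4038162, minus strand): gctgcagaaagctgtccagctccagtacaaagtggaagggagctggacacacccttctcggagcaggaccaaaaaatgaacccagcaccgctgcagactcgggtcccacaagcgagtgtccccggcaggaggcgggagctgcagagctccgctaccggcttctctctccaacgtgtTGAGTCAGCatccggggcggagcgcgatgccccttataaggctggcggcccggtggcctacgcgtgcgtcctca
Gstm5 (chr3:107895604-107895853, plus strand): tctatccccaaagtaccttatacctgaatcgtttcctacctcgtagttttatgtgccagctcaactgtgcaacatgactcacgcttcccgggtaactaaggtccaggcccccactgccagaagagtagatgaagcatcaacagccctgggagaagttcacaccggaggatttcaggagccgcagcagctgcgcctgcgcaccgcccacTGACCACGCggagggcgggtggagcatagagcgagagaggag
Mgst1 (chr6:138140277-138140526, plus strand): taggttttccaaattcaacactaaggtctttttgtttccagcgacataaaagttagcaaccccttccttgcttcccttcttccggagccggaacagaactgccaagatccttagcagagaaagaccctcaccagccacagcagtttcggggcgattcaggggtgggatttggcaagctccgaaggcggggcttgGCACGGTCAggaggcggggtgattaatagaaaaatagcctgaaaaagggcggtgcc

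The motif TGACNNNGC, searched on both strands from 250 bases before to 50 bases after each start, was found in Gstm5 at 42 bases before the start (TGACCACGC) and in 1 of the Mgst1 promoters at 56 bases before it, on the opposite strand (GCACGGTCA as printed). It occurs in 12.4% of all 32851 promoters of that length. A second motif, TGANTCAGC, which overlaps the first where its N is C and was searched after the sequences had been seen, lay 74 bases before the start of Gstp1 as TGAGTCAGC. It occurs in 1.19% of promoters, and among the pathway lists below also in Gstp2 and Srxn1, both as TGAGTCAGC. Neither motif was found in the Gsta2 window.

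Members of the mu class dominated the family. Compared per kilobase of exon (RPKM from TMM-scaled counts), Gstm1 averaged 1539 over the 18 libraries and Gstm2 746. These genes lie near each other on chromosome 3 (Gstm1 at 108012255 to 108017973, Gstm2 at 107981702 to 107986453, both minus strand). Mgst1, the membrane enzyme that detoxifies lipid hydroperoxides (chromosome 6, 138140316 to 138156755), followed at 198 RPKM, and Gstp1, the pi-class enzyme that also binds the kinase JNK (chromosome 19, 4035407 to 4037985), at 84.2 RPKM.

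Lower levels were those of Gstm5 (chromosome 3, 107895821 to 107898686) at 47.8, Gstt1 (chromosome 10, 75783813 to 75798584) at 24.4 and Gsto1 (chromosome 19, 47854970 to 47864790) at 21 RPKM. Gsta4, whose enzyme conjugates the aldehyde 4-hydroxynonenal (chromosome 9, 78182774 to 78209349), averaged 16.4 RPKM and Mgst3 (chromosome 1, 167371966 to 167393841) 13 RPKM. Gsta2 (chromosome 9, 78331018 to 78355788) was lowest at 4.01 RPKM, with 48 to 165 reads per library. Ranges over the libraries did not overlap between neighbours in this order from Gstm1 down to Gstp1, nor between Gstm5 and Gstt1. Gstp1 (51.2 to 140) overlapped Gstm5 (40.6 to 58). Gstt1 (19.3 to 27) and Gsto1 (17.9 to 24.6) overlapped and changed places when the longest transcript was used as length, Gsto1 also overlapped Gsta4 (13 to 18.9), and Gsta4 overlapped Mgst3 (10.3 to 15.8). The 10 genes together took 0.367% to 0.454% of all counts, of which Gstm1 and Gstm2 made up 81.5% to 84.8%.

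**Figure D1:**
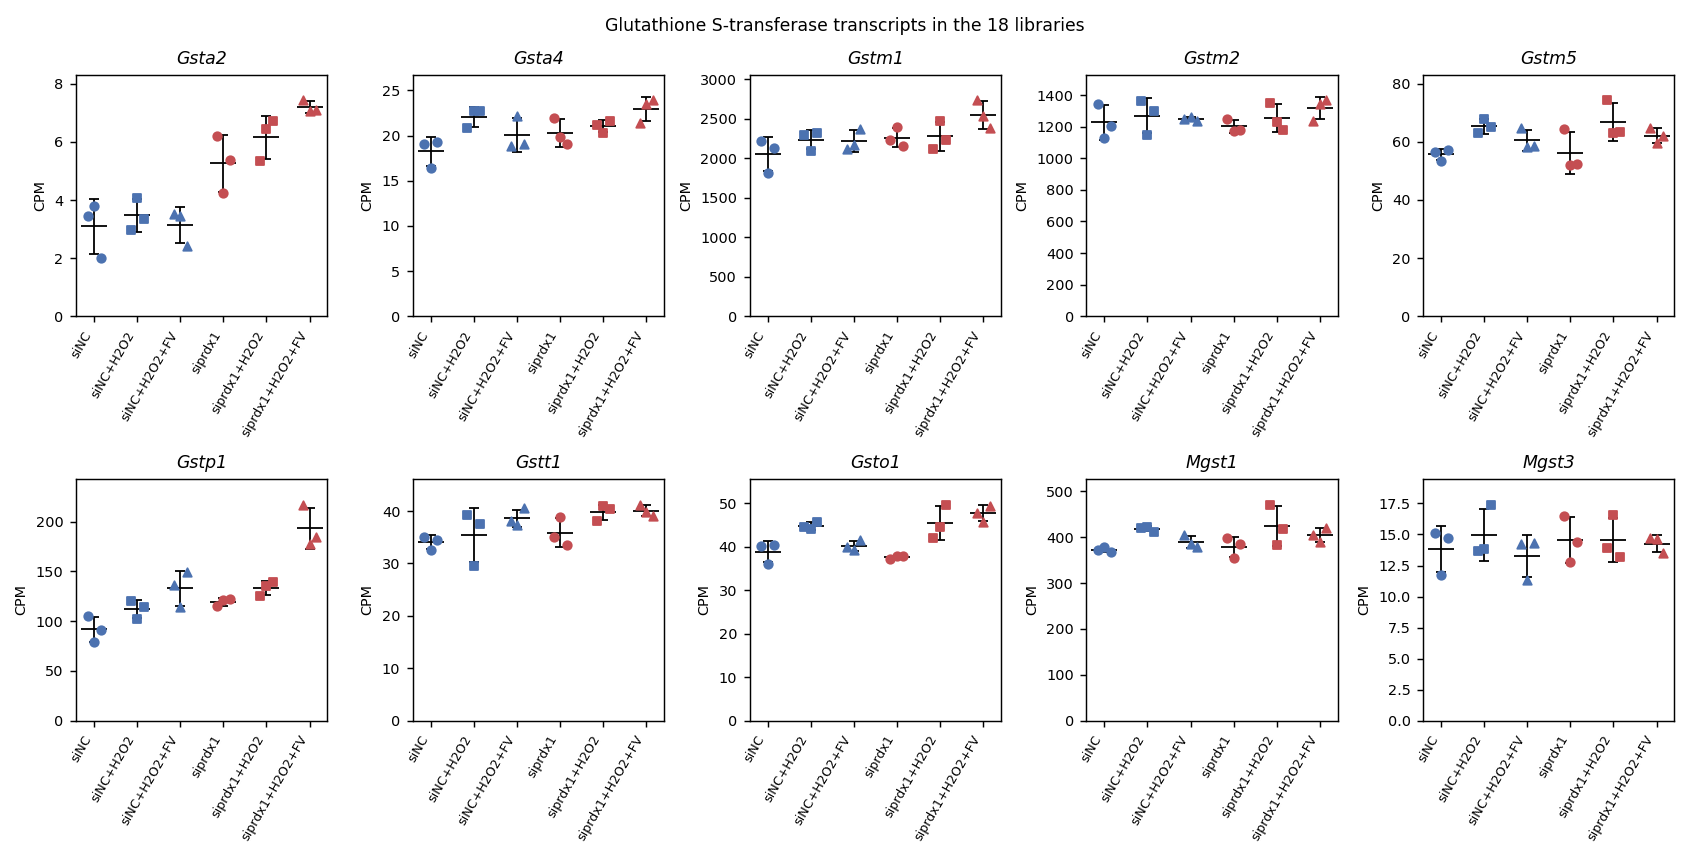
CPM (vertical axis, linear from 0) of the 10 transferase genes in each of the 18 libraries by group (horizontal axis), with siNC in blue and siprdx1 in red; bars are the mean ± SD of 3 libraries. Gsta2 sits at 2.02 to 4.07 CPM in the siNC libraries and at 4.23 to 7.43 CPM in the siprdx1 libraries, and Gstp1 is highest in siprdx1+H2O2+FV, while Gstm2 stays between 1131 and 1366 CPM.

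Prdx1 knockdown was asked about in each treatment by setting siprdx1 against siNC. Gsta2, an alpha-class enzyme that conjugates electrophiles and reduces lipid hydroperoxides, was the member that rose in all 3 treatments, by 1.69-fold, 1.78-fold and 2.31-fold. Gstp1 rose with knockdown after H2O2 and fluvastatin and in the average over treatments, and Gsto1, the omega-class enzyme that reduces dehydroascorbate and arsenic compounds, rose after H2O2 and fluvastatin. No member fell.

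Without H2O2 the siNC libraries held 3.46, 3.8 and 2.02 CPM of Gsta2 and the siprdx1 libraries 6.2, 4.23 and 5.37 CPM. With H2O2 these were 2.98, 4.07 and 3.36 CPM against 5.33, 6.43 and 6.72 CPM. With fluvastatin added they were 3.53, 3.44 and 2.43 CPM against 7.43, 7.06 and 7.09 CPM. Every siprdx1 library lay above every siNC library, and the lowest siprdx1 value, 4.23 CPM, was close to the highest siNC value, 4.07 CPM. The log2 fold changes were 0.76 ± 0.20 without H2O2 (edgeR quasi-likelihood test with Benjamini-Hochberg adjustment, adjusted p = 0.0436), 0.83 ± 0.19 after H2O2 (adjusted p = 0.0173) and 1.21 ± 0.20 after H2O2 and fluvastatin (adjusted p = 0.000471), here and below as estimate ± SE with n = 3 per group. Averaged over treatments Gsta2 was 0.93 ± 0.11 higher (edgeR adjusted p = 4.81e-06).

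The first of these calls rested on single libraries. Without H2O2 the adjusted p of Gsta2 became 0.0658 on leaving out siNC replicate 1, 0.274 on leaving out siNC replicate 3, 0.263 and 0.146 on leaving out siprdx1 replicates 1 and 3, and 0.134 when only these groups were fitted (edgeR). Libraries of the other groups mattered as well, since they share the estimate of the spread: no member passed without siNC+H2O2 replicate 1 or 3, siprdx1+H2O2 replicate 3, or siprdx1+H2O2+FV replicate 2 or 3. After H2O2 it was 0.11 and 0.0859 without siNC+H2O2 replicates 1 and 3 and 0.0942 without siprdx1+H2O2 replicate 3 (edgeR). The value after H2O2 and fluvastatin passed in all 15 alternatives and the average over treatments in all 26.

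For Gstp1 the siNC libraries held 105, 79.2 and 90.7 CPM without H2O2 and the siprdx1 libraries 115, 121 and 122 CPM. With H2O2 these were 120, 102 and 114 CPM against 125, 135 and 139 CPM. With fluvastatin added they were 136, 114 and 149 CPM against 217, 178 and 185 CPM. Within each treatment the groups did not overlap. The change passed after H2O2 and fluvastatin, at 0.54 ± 0.10 (edgeR adjusted p = 0.00273), and as the average over treatments, at 0.39 ± 0.06 (edgeR adjusted p = 0.000121). Without H2O2 the estimate was 0.38 ± 0.10 (edgeR adjusted p = 0.0571), which DESeq2 put at an adjusted p of 0.00997 and edgeR with GC and length offsets at 0.0158. After H2O2 it was 0.25 ± 0.10 (edgeR adjusted p = 0.25), and 0.0423 with the same offsets.

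Gsto1 had 40, 39.2 and 41.5 CPM in siNC+H2O2+FV, against 47.8, 45.8 and 49.5 CPM in siprdx1+H2O2+FV, with no overlap. The difference was 0.24 ± 0.07 (edgeR adjusted p = 0.0367), and it passed in 7 of 15 alternatives. Its adjusted p was 0.112 and 0.161 without siNC+H2O2+FV replicates 1 and 2, 0.123, 0.0552 and 0.131 without siprdx1+H2O2+FV replicates 1, 2 and 3, and 0.0991 with GC and length offsets (edgeR). Averaged over treatments Gsto1 was 0.07 ± 0.04 (edgeR adjusted p = 0.268).

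Gstm1, the most abundant member, was 2119, 2172 and 2377 CPM in siNC+H2O2+FV, against 2734, 2541 and 2381 CPM in siprdx1+H2O2+FV. The groups nearly touched, and 0.20 ± 0.07 did not pass (edgeR adjusted p = 0.155). Averaged over treatments Gstm1 was 0.12 ± 0.04 (edgeR adjusted p = 0.0832), which passed with library size alone as scaling (0.0277), without a filter (0.00104), with GC and length offsets (0.00293), and without siNC replicate 1 (0.0421), siNC+H2O2+FV replicate 3 (0.0464) or siprdx1+H2O2 replicate 1 (0.0402). Gsta4, Gstm2, Gstm5, Gstt1, Mgst1 and Mgst3 did not pass with knockdown. For Gstm2 the 95% intervals of all 7 pairwise contrasts of treatment and knockdown lay between -0.17 and 0.22 on the log2 scale, for Mgst1 between -0.23 and 0.29 and for Gstt1 between -0.16 and 0.34.

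Members that rose numbered 1 of 10 without H2O2, 1 of 10 after H2O2 and 3 of 10 after H2O2 and fluvastatin. Of all tested genes, 0.657%, 0.901% and 1.62% rose in these comparisons, 1.67%, 1.83% and 2.35% fell, and 2.33%, 2.73% and 3.97% passed in either direction. In the average over treatments 2 of 10 members rose and none fell, where 3.93% of tested genes rose, 5.46% fell and 9.38% passed. The member median was 0.07, 0.02 and 0.15 on the log2 scale, beside medians of all tested genes of 0.003, 0.004 and 0.005. With GC and length offsets the member medians were 0.07, 0.05 and 0.06, so the higher median after H2O2 and fluvastatin was not seen on that scale. Marker sums of several cell types differed between the arms too. Fibroblast markers summed to 17853 to 18892 CPM in siNC and 15060 to 15818 CPM in siprdx1, and to 18287 to 18996 and 15839 to 16493 CPM after H2O2 and fluvastatin, with 2 of 7 lower in each comparison. Smooth muscle markers summed to 1317 to 1489 CPM in siNC and 1092 to 1198 CPM in siprdx1, with 3 of 5 lower. After H2O2 the fibroblast sums were 18958 to 19661 CPM in siNC and 17313 to 18583 CPM in siprdx1, although 2 of 7 markers were higher and 1 lower and their median log2 fold change was 0.15. Leydig markers (6 of 8 tested) summed to 1123 to 1165, 1164 to 1183 and 1444 to 1496 CPM in siNC in the 3 treatments and to 1057 to 1073, 985 to 1046 and 1333 to 1344 CPM in siprdx1, with 0, 2 and 1 of 6 lower and none higher. Macrophage sums after H2O2 were 9529 to 10215 CPM in siNC and 8391 to 8616 CPM in siprdx1, with 1 of 14 lower. After H2O2 and fluvastatin they were higher with knockdown, at 8386 to 8496 CPM in siNC and 8747 to 9176 CPM in siprdx1. None of the 14 markers passed there, and their median log2 fold change was 0.125. Without H2O2 the macrophage sums overlapped, at 8276 to 9164 CPM in siNC and 8082 to 8328 CPM in siprdx1. Endothelial markers (4 of 5 tested) summed to 90.4 to 98.4 CPM in siNC and 70.3 to 80.2 CPM in siprdx1, and to 90.8 to 92.5 and 76 to 77.2 CPM after H2O2 and fluvastatin, with 1 of 4 lower in each. The part of these cells in the rises of Gsta2, Gstp1 and Gsto1 was not tested.

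**Figure D2:**
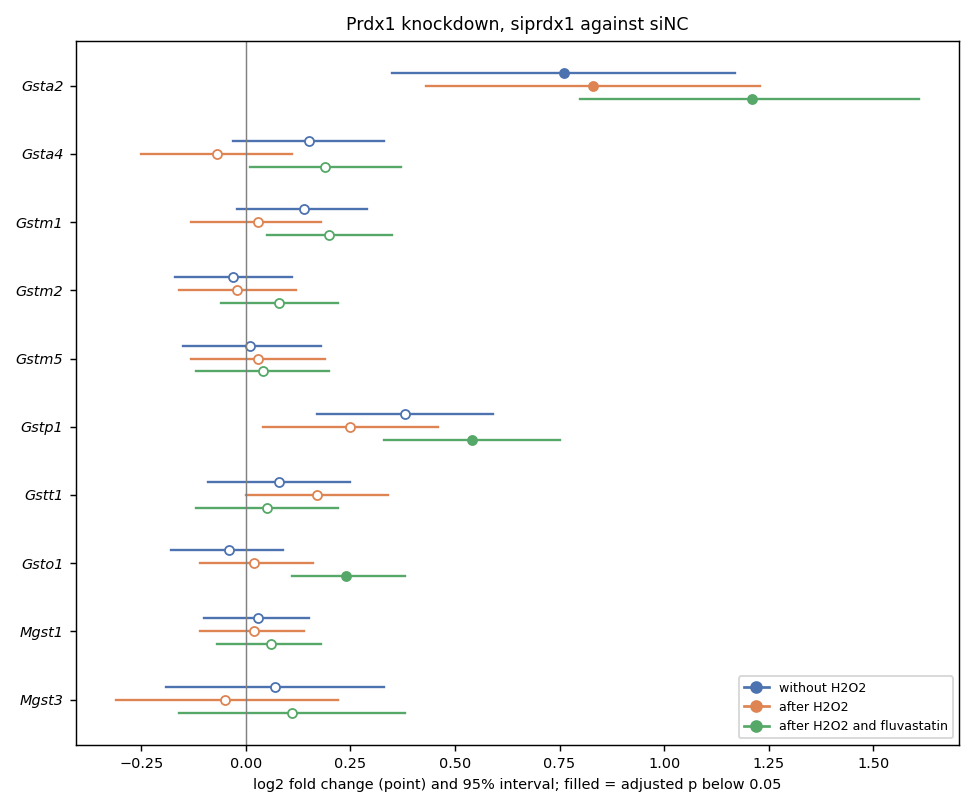
Log2 fold change of siprdx1 against siNC for the 10 genes (horizontal axis, log2 scale) in the 3 treatments; lines are 95% intervals and filled points have an edgeR adjusted p below 0.05. Gsta2 is filled in all 3 treatments, Gstp1 and Gsto1 after H2O2 and fluvastatin, and the Gstm2 intervals stay within -0.17 to 0.22.

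The response to H2O2 itself was small. All 10 members had estimates above 0 in siNC and in siprdx1, with medians of 0.17 and 0.15 on the log2 scale beside 0.008 and 0.02 for all tested genes. With GC and length offsets the member medians were 0.04 and 0.05 and 7 and 6 of the 10 were above 0, and with library size alone 10 and 8 were. In siNC 0 of 10 members passed in edgeR, where 6.95% of tested genes did (2.36% higher, 4.59% lower). At an unadjusted p under 0.05 there were 5 (0 with the GC and length offsets), and limma voom called 1 and DESeq2 2. Leaving out siprdx1+H2O2 replicate 1, a library of neither group, gave 3. Shares of all tested genes under these other criteria are not given here, so these counts do not set the family apart. In siprdx1, 1 of 10 rose and none fell, where 2.48% of tested genes rose, 5.39% fell and 7.87% passed.

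The member that rose in siprdx1 was Gsto1. It had 37.3, 37.8 and 37.9 CPM without H2O2 and 42, 44.6 and 49.7 CPM after it. The groups did not overlap, and the change was 0.27 ± 0.07 (edgeR adjusted p = 0.0106), with adjusted p = 0.0956 without siprdx1+H2O2 replicate 3 and 0.107 when only these groups were fitted. In siNC Gsto1 had 40.1, 36.1 and 40.5 CPM without H2O2 and 44.6, 44.1 and 45.7 CPM after it, a difference of 0.21 ± 0.07 that did not pass (edgeR adjusted p = 0.0609). In siprdx1 fibroblast markers summed to 15060 to 15818 CPM before and 17313 to 18583 CPM after H2O2, with 3 of 7 higher, and their part in the Gsto1 value was not tested.

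Gstm5, a mu-class gene, had 56.4, 53.4 and 57.1 CPM in siNC, against 62.9, 67.8 and 65.1 CPM in siNC+H2O2, with no overlap. Its estimates of 0.23 ± 0.08 in siNC and 0.25 ± 0.08 in siprdx1 fell just short (edgeR adjusted p = 0.0814 and 0.0552). Mgst1 had 372, 378 and 367 CPM in siNC, against 421, 423 and 412 CPM in siNC+H2O2. All siNC+H2O2 libraries were again higher. The Mgst1 estimates were 0.17 ± 0.06 in siNC (edgeR adjusted p = 0.0968) and 0.16 ± 0.06 in siprdx1 (edgeR adjusted p = 0.108). In siprdx1 the groups overlapped in range for both Gstm5 and Mgst1. Gsta4 had 19.1, 16.4 and 19.3 CPM in siNC, against 20.8, 22.7 and 22.7 CPM in siNC+H2O2, without overlap. The difference was 0.28 ± 0.09 (edgeR adjusted p = 0.0532), and DESeq2 (0.0432) and limma voom (0.0494) placed it past the threshold. In siprdx1 Gsta4 was 0.05 ± 0.09 (edgeR adjusted p = 0.785). Gstp1 was 0.29 ± 0.10 in siNC (edgeR adjusted p = 0.101) and 0.16 ± 0.10 in siprdx1 (edgeR adjusted p = 0.404).

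With the replicate number as a block for H2O2 in siNC, although pairing by number was not shown, 3 members passed as higher. They were Gstm5 (edgeR adjusted p = 0.0385), Gstp1 (0.0437) and Gsto1 (0.0364). The share of all tested genes that passed with the block is not given here, so these 3 do not set the family apart. With GC and length offsets added to the block no member passed in edgeR, with 1 at an unadjusted p under 0.05 and a member median of 0.04. Macrophage markers summed to 8276 to 9164 CPM in siNC and 9529 to 10215 CPM in siNC+H2O2, with 2 of 14 higher, and their part in these values was not tested. Prdx1 rose by 0.30 ± 0.06 in the same comparison (edgeR adjusted p = 0.00403).

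Fluvastatin after H2O2 was compared with H2O2 alone in each arm, and the number of members that passed depended on the scaling. In the reported fit Gstp1 rose in siprdx1 and no other member passed in either arm. In siprdx1 Gstp1 went from 125, 135 and 139 CPM to 217, 178 and 185 CPM, so that all fluvastatin libraries were higher, a change of 0.54 ± 0.10 or 1.46-fold (edgeR adjusted p = 0.000359) that passed in all 15 alternatives. In siNC it went from 120, 102 and 114 CPM to 136, 114 and 149 CPM, where the groups overlapped in range, and 0.25 ± 0.10 did not pass (edgeR adjusted p = 0.0779). It passed there without siNC+H2O2+FV replicate 2 (0.36, edgeR adjusted p = 0.0155) and with GC and length offsets (0.41, edgeR adjusted p = 0.00179).

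Gsto1 in siNC went from 44.6, 44.1 and 45.7 CPM to 40, 39.2 and 41.5 CPM. The groups did not overlap, but -0.16 ± 0.07 did not pass (edgeR adjusted p = 0.0888). In siprdx1 Gsto1 was 0.07 ± 0.06 (edgeR adjusted p = 0.527). Mgst1 was -0.10 ± 0.06 and -0.07 ± 0.06 in siNC and siprdx1 (edgeR adjusted p = 0.244 and 0.502), and Gstm5 was -0.11 ± 0.08 and -0.10 ± 0.08 (edgeR adjusted p = 0.335 and 0.398). Gsta2 was -0.16 ± 0.21 in siNC and 0.22 ± 0.18 in siprdx1 (edgeR adjusted p = 0.654 and 0.431). Gstm1 was 0.16 ± 0.07 in siprdx1 (edgeR adjusted p = 0.124).

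In siNC, then, 0 of 10 members passed in edgeR (2 at an unadjusted p under 0.05, 0 with limma voom and 0 with DESeq2), where 24.9% of tested genes did (13.5% higher, 11.3% lower). In siprdx1, 1 of 10 rose and none fell, where 12.6% of tested genes rose, 11.0% fell and 23.6% passed. With 10 members, these counts are too near the shares of all genes to set the family apart. The member medians were -0.11 in siNC and 0.07 in siprdx1, beside medians of -0.01 and -0.006 over all tested genes. Scaling matters here, since library size alone moved the median of all genes by -0.10 in both arms. On that scale 4 members were lower in siNC (Gsta4, Gstm5, Gsto1 and Mgst1), and in siprdx1 Gstm5 and Mgst1 were lower and Gstp1 higher. With GC and length offsets 3 members were higher in siNC, namely Gstp1, Gstt1 (0.28, edgeR adjusted p = 0.000665, against 0.13 without them) and Gstm1 (0.13, edgeR adjusted p = 0.0165), whose value without the offsets, -0.01 ± 0.07, had the opposite sign. Smooth muscle markers rose with fluvastatin, 5 of 5 in each arm, from sums of 1310 to 1401 CPM to 2409 to 2561 CPM in siNC and from 1087 to 1231 CPM to 2083 to 2341 CPM in siprdx1. The Leydig sums given above were higher with fluvastatin in both arms, but in siNC 1 of 6 markers was higher and 2 lower (median log2 fold change -0.05), and in siprdx1 2 were higher and 1 lower (0.025). Of 14 macrophage markers 7 were lower and 1 higher in siNC, and none lower and 2 higher in siprdx1. The part of these cells in the values of Gstp1 and the other members was not tested.

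**Figure D3:**
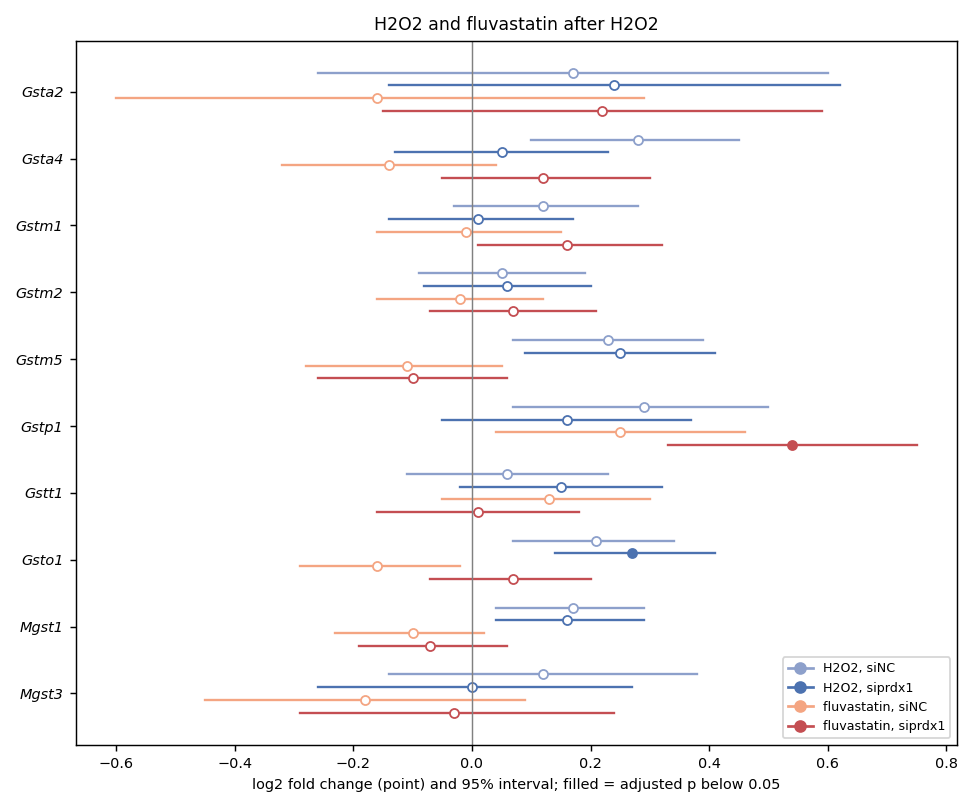
Log2 fold changes (horizontal axis, log2 scale) with 95% intervals for H2O2 against no H2O2 (blue) and fluvastatin after H2O2 against H2O2 (red) in each siRNA arm; filled points have an edgeR adjusted p below 0.05. The filled points are Gsto1 for H2O2 in siprdx1 and Gstp1 for fluvastatin in siprdx1.

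Whether knockdown altered either response was tested by interaction. For H2O2 no member passed (edgeR; 0 at an unadjusted p under 0.05, 0 with limma voom and 0 with DESeq2), where 0.243% of tested genes did (0.0426% higher, 0.201% lower). For fluvastatin no member passed either (edgeR; 2 at an unadjusted p under 0.05, 0 with limma voom and 0 with DESeq2), where 0.651% did (0.463% higher, 0.189% lower). The fluvastatin interaction was 0.29 ± 0.14 for Gstp1 (95% interval -0.01 to 0.59, edgeR adjusted p = 0.403), so the larger rise of Gstp1 in siprdx1 was not shown to differ from that in siNC. It was 0.38 ± 0.28 for Gsta2 (-0.20 to 0.95, edgeR adjusted p = 0.608), 0.22 ± 0.09 for Gsto1 (0.03 to 0.41, edgeR adjusted p = 0.314) and 0.26 ± 0.12 for Gsta4 (0.01 to 0.51, edgeR adjusted p = 0.364). The H2O2 interaction of Gsta4 was -0.22 ± 0.12 (-0.48 to 0.03, edgeR adjusted p = 0.886), and that of Gstp1 was -0.13 ± 0.14 (-0.43 to 0.17, edgeR adjusted p = 0.997).

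The rest of the pathway gave the setting. Among 11 genes that supply or recycle glutathione, 5 rose with fluvastatin in siNC and 6 in siprdx1, and none fell. Gclc, the catalytic subunit of the rate-limiting enzyme of glutathione synthesis, went from 63.5 ± 0.626 to 164 ± 4.06 CPM in siNC (SD, n = 3), a change of 1.37 ± 0.05 (edgeR adjusted p = 4.42e-15), and its partner Gclm changed by 0.39 ± 0.07 (edgeR adjusted p = 0.000223). The cystine importer Slc7a11 rose by 0.98 ± 0.12 (edgeR adjusted p = 1.18e-06), and Chac1, which breaks glutathione down, by 1.99 ± 0.15 (edgeR adjusted p = 4.59e-10). Of 9 NRF2 regulators and target genes, 7 rose and 1 fell in siNC and 8 rose and 1 fell in siprdx1, with list medians of 1.08 and 0.85. Those that rose included Txnrd1, which reduces thioredoxin (1.61 ± 0.04 in siNC), and the peroxiredoxin repair enzyme Srxn1 (1.55 ± 0.05). The list mixes regulators with targets, so its medians do not stand for targets alone. In siNC the regulator Bach1 went from 70.6 ± 2.57 to 149 ± 3.29 CPM. The target Nqo1 went from 25.1 ± 2.15 to 28.4 ± 0.784 CPM there (SD, n = 3). Medians for the same comparisons were 0.12 and 0.24 for the glutathione supply genes and -0.11 and 0.07 for the 10 transferases. Member medians were -0.02 and 0.06 with GC and length offsets and -0.21 and -0.03 with library size alone, so that the sign in siprdx1 turned with the latter.

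**Figure D4:**
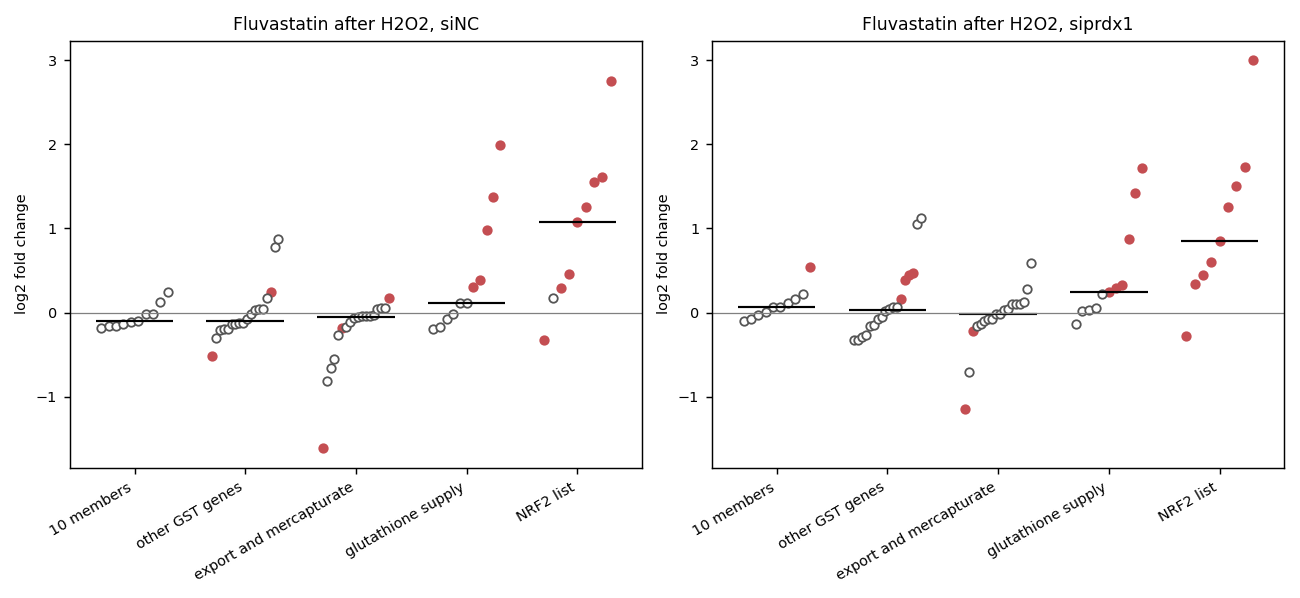
Log2 fold change (vertical axis) of each tested gene with fluvastatin after H2O2 in siNC (left) and siprdx1 (right), by gene list; red points have an edgeR adjusted p below 0.05 and bars are list medians. The 10 transferases sit near 0, with Gstp1 in siprdx1 their only red point, while most of the NRF2 list, regulators and targets together, lies well above 0.

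Of 18 other genes of the transferase superfamily that were tested (of 23 listed), 1 rose with knockdown without H2O2, 0 after H2O2 and 3 after H2O2 and fluvastatin, and 1 fell after H2O2. The 3 include the pseudogene Gstp-ps (0.51 ± 0.10), which is near-identical to Gstp1, so reads could be split between them. Gsta3, an alpha-class gene more abundant than either alpha member, went from 154 ± 6.44 to 179 ± 7.02 CPM without H2O2 (SD, n = 3), a rise of 0.22 ± 0.05 (edgeR adjusted p = 0.0176), and was 0.26 ± 0.05 higher after H2O2 and fluvastatin (edgeR adjusted p = 0.00352). In the latter comparison Ptges, the membrane enzyme that makes prostaglandin E, rose by 0.19 ± 0.05 (edgeR adjusted p = 0.0424). Averaged over treatments, 4 of the 18 rose with knockdown and 1 fell. Among those that rose was the mu-class gene Gstm6 (0.28 ± 0.07, edgeR adjusted p = 0.0172). With fluvastatin 1 of the 18 rose and 1 fell in siNC (Ptges, 0.24 ± 0.05, and Gstt3, -0.51 ± 0.14). In siprdx1 4 rose, among them Ptges at 0.39 ± 0.05 and again Gstp-ps at 0.47 ± 0.10.

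Among 18 tested genes of conjugate export and mercapturate processing, 1, 2 and 1 rose with knockdown in the 3 treatments and none fell. Abcc4, an efflux pump for organic anions, rose in each, by 0.36 ± 0.06, 0.34 ± 0.06 and 0.35 ± 0.06 (edgeR adjusted p = 0.000908, 0.00177 and 0.000962). Of the glutathione supply genes Gclc rose with knockdown in each treatment too, by 0.33 ± 0.05, 0.40 ± 0.05 and 0.46 ± 0.05 (edgeR adjusted p = 0.000776, 0.000101 and 5.18e-06). So did the NRF2 targets Nqo1 (0.48 ± 0.08, 0.36 ± 0.07 and 0.63 ± 0.07) and Txnrd1 (0.40 ± 0.04, 0.34 ± 0.04 and 0.24 ± 0.04). Of the 11 supply genes 2, 1 and 1 rose in the 3 treatments, and of the 9 NRF2 genes 2, 2 and 3. None of either list fell in these 3 comparisons, and the NRF2 list medians were 0.07, 0 and 0.12. Averaged over treatments, 3 of the 18 export genes, 4 of the 11 supply genes and 3 of the 9 NRF2 genes rose. In that average 1 NRF2 gene fell, where 3.93% of tested genes rose and 5.46% fell. The target Hmox1 did not pass in any of the 3 treatments taken singly, but its ranges lay lower in siprdx1 than in siNC. They were 606 to 664 against 708 to 720 CPM without H2O2 and 714 to 808 against 843 to 865 CPM after H2O2. With fluvastatin added they were 1816 to 1852 against 1943 to 2135 CPM.

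Across the 18 libraries the members did not move as 1 block. Pearson r of log2 CPM, a description over libraries that share treatments and depth, was 0.87 for Gstm5 with Mgst1 and 0.83 for Gstp1 with Gstm1, but -0.03 for Mgst1 with Gstm1. Among 12601 other named genes of at least 1 CPM, those most like Gsta2 were Abcc4 (0.89) and Nedd4l (0.88), and those most like Gstp1 were Herpud1 (0.95) and Hspb8 (0.93). For Gstm1 they were Tbl3 (0.93) and Clu (0.91), for Gsto1 Creg1 (0.92) and Cyb5a (0.91), and for Mgst1 Degs1 (0.95) and Gbe1 (0.93). The best matches of Gsta4, Mgst3 and Gstm2 were looser, namely Ddx56 (0.80), Rab34 (0.80) and Isoc2b (0.77).

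Several members have near-identical copies, so that reads could be split between them. Gstp1 shares 97.6% identity over 631 bp with the pseudogene Gstp-ps, which also rose with fluvastatin in siprdx1 (0.47 ± 0.10, edgeR adjusted p = 0.00105) and with knockdown after H2O2 and fluvastatin (0.51 ± 0.10, edgeR adjusted p = 0.00393), at 3874 counts in all against 48854 for Gstp1. Gstm1 is 97.9% identical to Gstm2-ps1 (9399 counts) over 657 bp and 90.3% to Gstm2 over 237 bp. Gm6665, with 24883 counts, is 94.5% identical to Gstm1 and 97.9% to Gstm2 over 145 bp. Gstm6, with 2106 counts, is 92.9% identical to Gstm2 over 225 bp. The values of Gstm1 and Gstm2 are uncertain to that extent. Gsta2 is 98.2% identical to Gm10639 over 869 bp and 97.2% to Gsta1 over 870 bp. These copies had 6 and 11 counts over all 18 libraries against 1771 for Gsta2. If reads matching several genes were left uncounted, these low counts would not show it, so the Gsta2 level could be too low. Gstm5 and Gsto1 each overlap a gene on the opposite strand (4933431E20Rik and Cfap43), and since the sources used here do not say whether counting used strand, reads of these partners cannot be told apart from theirs.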

How the data were processed

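Per the labels' protocols, poly(A) RNA of 18 samples was made into libraries with a stranded kit. Raw read counts per gene were deposited by the authors; the submitters' processing notes name HISAT2, HTSeq and the mm10 build; versions, the annotation and the strand setting are not given in the sources used here. Coordinates and lengths came from GENCODE M21 (GRCm38, the mm10 assembly), which held 55227 of the 55487 IDs. Promoters came from RefSeq.

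From these counts CPM, RPKM and tests were obtained with edgeR 4.0.16 in R 4.3.3: TMM scaling, filterByExpr, and a robust quasi-likelihood fit (glmQLFit, glmQLFTest) of 6 group means to 18 libraries with 12 residual degrees of freedom. A result passed at an adjusted p below 0.05 over all 16432 genes within each of 10 contrasts. The SE is the log2 fold change divided by the square root of F. The common biological coefficient of variation was 7.01%. Near-identical transcripts were sought with blastn at 90% identity over at least 100 bp. Steps were tested on simulated data.

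The text names the 10 members, Prdx1, up to 4 genes per list and contrast that passed (those of largest fold change, not all of them printed) and the 2 genes most correlated with a member. Cell markers, near-identical copies and Bach1 are named for context. Members, lists and tests were chosen with earlier results of these data known. Member counts at an unadjusted p, or in an alternative, stand without the share of all tested genes under the same setting. Between replicates of a group the chi-square of counts was 2.64 to 16.1 per degree of freedom, above sampling noise in every pair. The labels number replicates 1 to 3 without saying what a number shares. For H2O2 in siNC the deviations of same-numbered libraries correlated weakly (0.135, 0.135 and 0.118), and the blocked values stand beside that comparison. In the other 6 pairwise contrasts at least 1 pair was under 0.1. The choice of this contrast comes from the data. Libraries with different numbers were not compared, so these correlations cannot show that a number marks a pair. Alternatives were RLE size factors, library size alone, no filter, the replicate block, limma voom (limma 3.58.1), DESeq2 1.42.0, GC and length offsets with and without the block, only the groups compared, and leaving out each library of the groups compared (member counts also without each other library).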

Additional observations from a re-analysis of the deposited data

How the results depend on the processing

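Of 1730 values of the members under the alternatives, 118 changed sign, none of them a value that passed as reported. The counts of members that passed moved as follows. For H2O2 in siNC (0 as reported) the count was 2 without a filter, 3 with the replicate block, 1 with limma voom, 2 with DESeq2 and 2 with only the groups compared, and 0 to 1 when 1 library of the groups compared was left out; over all 18 libraries the highest was 3, without siprdx1+H2O2 replicate 1. For H2O2 in siprdx1 (1) it was 2 without a filter, with the replicate block and with DESeq2, 0 with only the groups compared, and 0 (without siprdx1+H2O2 replicate 3) to 3 (without siprdx1+H2O2 replicate 2) without 1 library. For fluvastatin in siNC (0) it was 4 with library size alone, 3 with GC and length offsets with or without the block, 1 without a filter, with the block alone and with only the groups compared, and 0 to 1 without 1 library. For fluvastatin in siprdx1 (1) it was 3 with library size alone, 2 without a filter and with the offsets with or without the block, and 1 to 2 without 1 library. For knockdown without H2O2 (1) it was 2 with library size alone, no filter, the block, DESeq2 and the offsets with the block, 3 with the offsets alone, and 0 to 1 without 1 library of those groups; over all 18 libraries the highest was 2, without siNC+H2O2+FV replicate 3. For knockdown after H2O2 (1) it was 2 without a filter, 3 with the offsets with or without the block, and 0 to 1 without 1 library. The counts for knockdown after H2O2 and fluvastatin and for the average over treatments stayed within 1.5 times, and those of both interactions at 0, in each alternative run; for the average over treatments a fit to only the groups compared is the reported fit and was not repeated. The cause of these moves was not tested.

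Of the 118 sign changes, 2 passed under the alternative, both of Gstm1 for fluvastatin in siNC, at 0.128 with the offsets and 0.129 with the block added; without 1 library that value ranged from -0.0568 to 0.0274. Among other values printed in the report, signs changed for Gsta4 for H2O2 in siprdx1, at -0.0593 with the offsets and -0.0589 with the block added, and for Gsto1 for fluvastatin in siprdx1, at -0.0361 with library size alone. Without 1 library the fluvastatin value of Gsta2 in siNC ranged from -0.244 to 0.00892 and that of Mgst1 in siprdx1 from -0.132 to 0.019. Counts of 48 to 165 reads limit Gsta2.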

Other observations

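Hpgds, the sigma-class transferase that makes prostaglandin D2 and is found in macrophages and mast cells, changed in the siprdx1 arm. It had 54.9 ± 1.92 CPM in siprdx1, 35.9 ± 3.02 in siprdx1+H2O2 and 49.1 ± 2.44 in siprdx1+H2O2+FV (SD, n = 3), and 51.2 ± 6.98, 46.8 ± 1.71 and 48.2 ± 3.32 CPM in the siNC groups. It fell with H2O2 in siprdx1 by 0.61 on the log2 scale (SE 0.08, edgeR adjusted p = 3.08e-05), fell by 0.39 with knockdown after H2O2 (edgeR adjusted p = 0.0114) and rose with fluvastatin in siprdx1 by 0.45 ± 0.08 (edgeR adjusted p = 0.00027). The difference between arms was -0.49 ± 0.12 for H2O2 and 0.41 ± 0.12 for fluvastatin and did not pass (edgeR adjusted p = 0.123 and 0.14). The macrophage list did not pass for any of its 14 members with H2O2 in siprdx1, where its sum was 8082 to 8328 CPM before and 8391 to 8616 CPM after H2O2. With knockdown after H2O2, 1 of 14 was lower (median log2 fold change -0.175), and the siNC+H2O2 sum was 9529 to 10215 CPM. With fluvastatin in siprdx1, 2 were higher and none lower (median 0.095), and the sum was 8747 to 9176 CPM. The part of macrophages in the Hpgds values was not tested.

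The ratio of Gstm1 to Gstm2 counts was 1.57 to 2.21 over the libraries, lowest in siprdx1+H2O2 replicate 1 and highest in siprdx1+H2O2+FV replicate 1.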
